A study of Mus musculus with 10 samples.

Results

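The genes described here are 49 interferon-stimulated genes, that is, genes known to be switched on by interferons, taken by symbol from a list that was drawn up with earlier results of these data known. They were followed in mature CD8SP and CD4SP thymocytes, the 2 kinds of T cell about to leave the thymus. Of the 49, 48 had RefSeq transcripts in the deposited files, and 45 reached 1 FPKM (fragments per kilobase of transcript, scaled to the mapped fragments of the library, and so a level per transcript length) in at least one lineage. They stand among 23244 genes with transcripts in the files, of which 9682 reached that level.

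Both groups came from the thymi of C57BL/6 mice aged 6 to 8 weeks, with 2 or 3 thymi pooled per sample. CD8SP cells were sorted as CD8+CD4-TCRβ+CD24- after depletion of CD4-expressing cells, and CD4SP cells as CD4+CD8-TCRβ+CD24- after depletion of CD8-expressing cells. Each lineage had 1 PacBio long-read library and 4 short-read entries whose titles carry lane numbers, 10 entries in all. The short reads of a lineage have 1 deposited table, so each gene has 1 value per lineage, with no replicate and no p-value. The values carry no read counts, so the depth behind them is unknown.

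Type I interferons bind a receptor made of Ifnar1 and Ifnar2 and act through the kinases Jak1 and Tyk2. The kinases activate Stat2, which joins Irf9 in a complex that binds the interferon-stimulated response element (ISRE) before target genes. Interferon gamma acts through Ifngr1 and Ifngr2 and leads to binding at the gamma-activated site (GAS). The target genes encode sensors of foreign nucleic acid, proteins that block viral replication, GTPases that attack vacuoles holding pathogens, and regulators of the pathway itself. In the thymus, maturing single-positive cells are known to carry a low level of this programme without infection.

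The ISRE core searched was GAAANNGAAA on either strand, and the GAS was TTCNNNGAA, which reads the same on both strands. The window ran from 250 bases before to 50 bases after each RefSeq transcript start. RefSeq promoter sequences of build GRCm38.p6 were matched for 39 of the 49 genes. The entries for Ifi27, Ifi204, Mx1, Mx2, Oas2, Rtp4, Usp18, Zbp1, Parp9 and Parp14 were not among them. An ISRE core lay in the window of 24 of the 39 genes (61.5%), against 3.99% of all 27025 genes with a promoter sequence. A GAS lay in 14 of the 39 (35.9%), against 9.55% of all genes. A match is a string of letters and not a shown binding site. The 180 bases before the start are shown for the 5 genes called higher in CD8SP cells that had an ISRE core there, 5′ to 3′ on the strand of the gene, with the core in capitals.
Isg15 (chr4:156200819-156200998, minus strand): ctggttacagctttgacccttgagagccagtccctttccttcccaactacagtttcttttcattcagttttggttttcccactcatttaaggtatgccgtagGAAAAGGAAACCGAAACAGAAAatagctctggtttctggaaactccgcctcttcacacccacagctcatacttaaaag
Bst2 (chr8:71537473-71537652, minus strand): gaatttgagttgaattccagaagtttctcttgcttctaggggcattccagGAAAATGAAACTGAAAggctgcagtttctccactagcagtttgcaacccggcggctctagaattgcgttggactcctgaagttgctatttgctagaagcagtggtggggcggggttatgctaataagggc
Oas3 (chr5:120777660-120777839, minus strand): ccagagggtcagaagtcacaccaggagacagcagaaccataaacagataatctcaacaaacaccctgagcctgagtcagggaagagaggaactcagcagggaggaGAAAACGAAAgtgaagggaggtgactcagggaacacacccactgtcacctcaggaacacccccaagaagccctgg
Ifit3 (chr19:34583349-34583528, plus strand): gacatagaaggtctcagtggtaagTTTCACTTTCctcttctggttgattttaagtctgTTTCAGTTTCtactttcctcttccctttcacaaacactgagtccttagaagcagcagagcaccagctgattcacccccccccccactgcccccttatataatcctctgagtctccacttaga
Gbp3 (chr3:142559864-142560043, plus strand): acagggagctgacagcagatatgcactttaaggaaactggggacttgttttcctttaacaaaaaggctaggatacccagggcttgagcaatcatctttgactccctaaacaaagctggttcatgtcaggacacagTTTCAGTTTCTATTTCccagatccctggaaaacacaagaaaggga

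In Isg15 the ISRE core occurred 3 times in overlapping copies that began at positions -78, -72 and -66 from the start. In Bst2 a pair of overlapping copies began at -130 and -124, and a GAS that began at -136 overlapped the first of them. Ifit3 had a pair of separate copies on the opposite strand at -156 and -122, Gbp3 an overlapping pair on the opposite strand at -45 and -39, and Oas3 a single copy at -75. Motifs of both kinds occurred in Bst2, Eif2ak2, Gbp7, Ifitm3, Igtp, Irgm2 and Oas1a. Neither was found in 8 genes, namely Dtx3l, Ifi209, Ifi44, Ifi47, Irf7, Irf9, Oasl2 and Xaf1. Among the genes at 1 FPKM or more, the 21 with an ISRE core had a median log2 ratio of 0.43 and included 5 called higher in CD8SP cells and 1 called higher in CD4SP cells. The 15 without one had a median of 0.23 and no call in either direction. Of all genes tested, 9.98% were called higher in CD8SP cells and 4.76% higher in CD4SP cells, by a rule of size and limits given with the levels. The ranges overlapped, from -1.69 in Ifitm3 to 1.55 in Oas3 with the core, and from -0.84 in Samhd1 to 0.86 in Ifi35 without it.

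**Figure D1:**
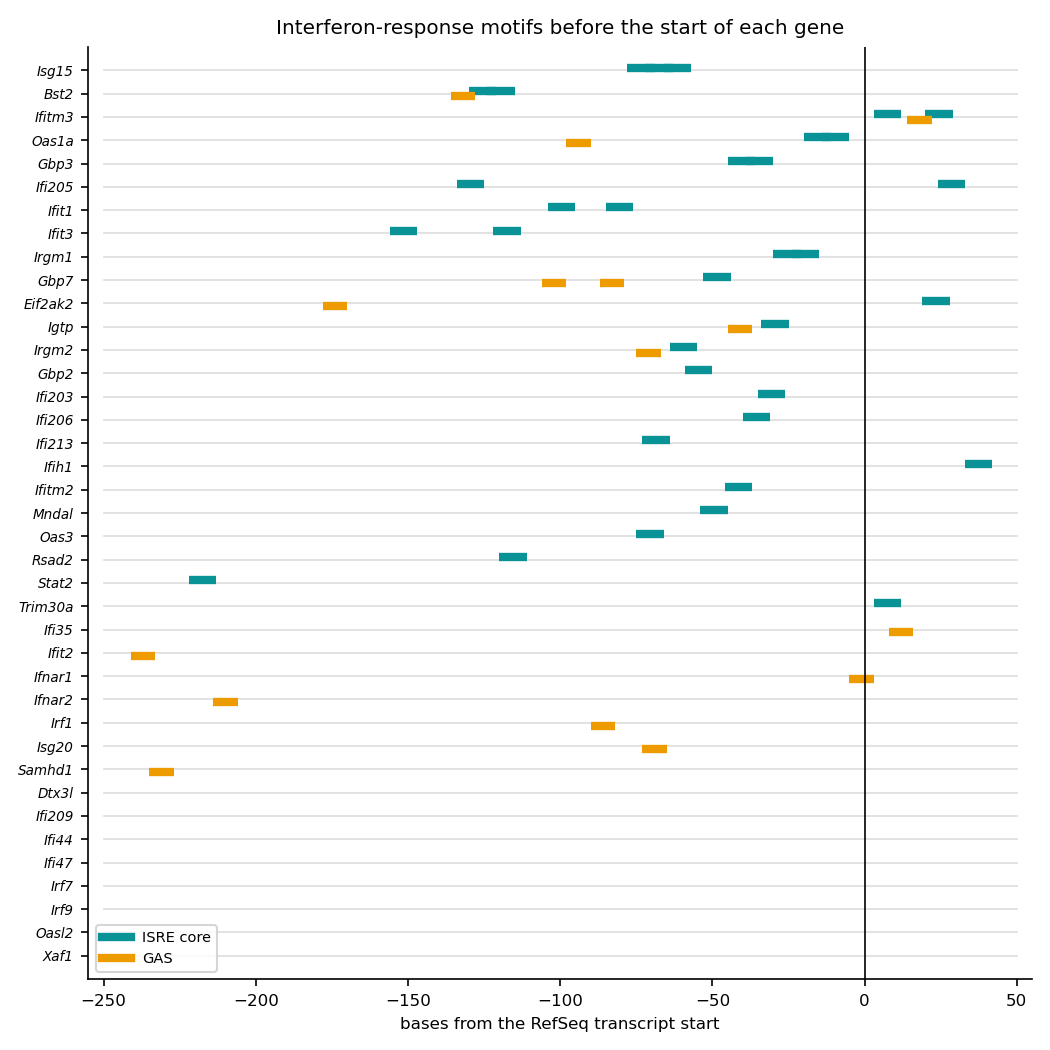
Position of ISRE cores (teal) and GAS matches (orange) in the 39 genes with a RefSeq promoter sequence, in bases from the transcript start (vertical line), with the window from 250 before to 50 after it. For genes with several starts the window with the most ISRE cores is drawn. The 24 genes with an ISRE core are at the top and the 8 with neither motif at the bottom.

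The interferon-stimulated genes were present in both lineages at a median of 18.1 FPKM in CD8SP cells and 11.8 FPKM in CD4SP cells, against 7.28 FPKM and 6.23 FPKM over all 9682 genes. Summed over the genes with RefSeq transcripts they came to 887 FPKM in CD8SP cells and 682 FPKM in CD4SP cells. A gene was called where its higher level reached 1 FPKM, the lineages differed at least 2-fold on the scale of FPKM + 0.1, and the deposited lower and upper limits, summed over its transcripts, did not overlap. Mx1, Oas3, Bst2, Gbp3, Ifi27, Ifit3 and Isg15 were called higher in CD8SP cells. They are 7 of the 45 genes (15.6%), against 9.98% of all genes tested. Ifitm3 alone was called higher in CD4SP cells, 1 of 45 (2.22%) against 4.76% of all genes. The median log2 ratio of CD8SP over CD4SP was 0.43 over the 45 genes and 0.22 over all genes. With RefSeq transcripts alone the order turned round, with a median of 0.24 over 43 of the genes and 0.31 over all genes. The ratio was above 0 in 33 of the 45 genes (73.3%), against 65.6% of all genes. After CD8SP values were scaled so that the median of genes at 1 FPKM or more in both lineages, 0.21, became 0, the shares above 0 were 64.4% of the 45 and 50.3% of all genes. The limits of the lineages lay apart with CD8SP higher in 27 of the 45 genes (60%), against 39.1% of all genes, and apart with CD4SP higher in 8 (17.8%), against 15.4%. These limits belong to 1 table of pooled animals and do not cover differences between animals. No source used here states their confidence level. In bulk RNA, more cells of a type that carry a transcript and more of it per cell cannot be told apart.

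**Figure D2:**
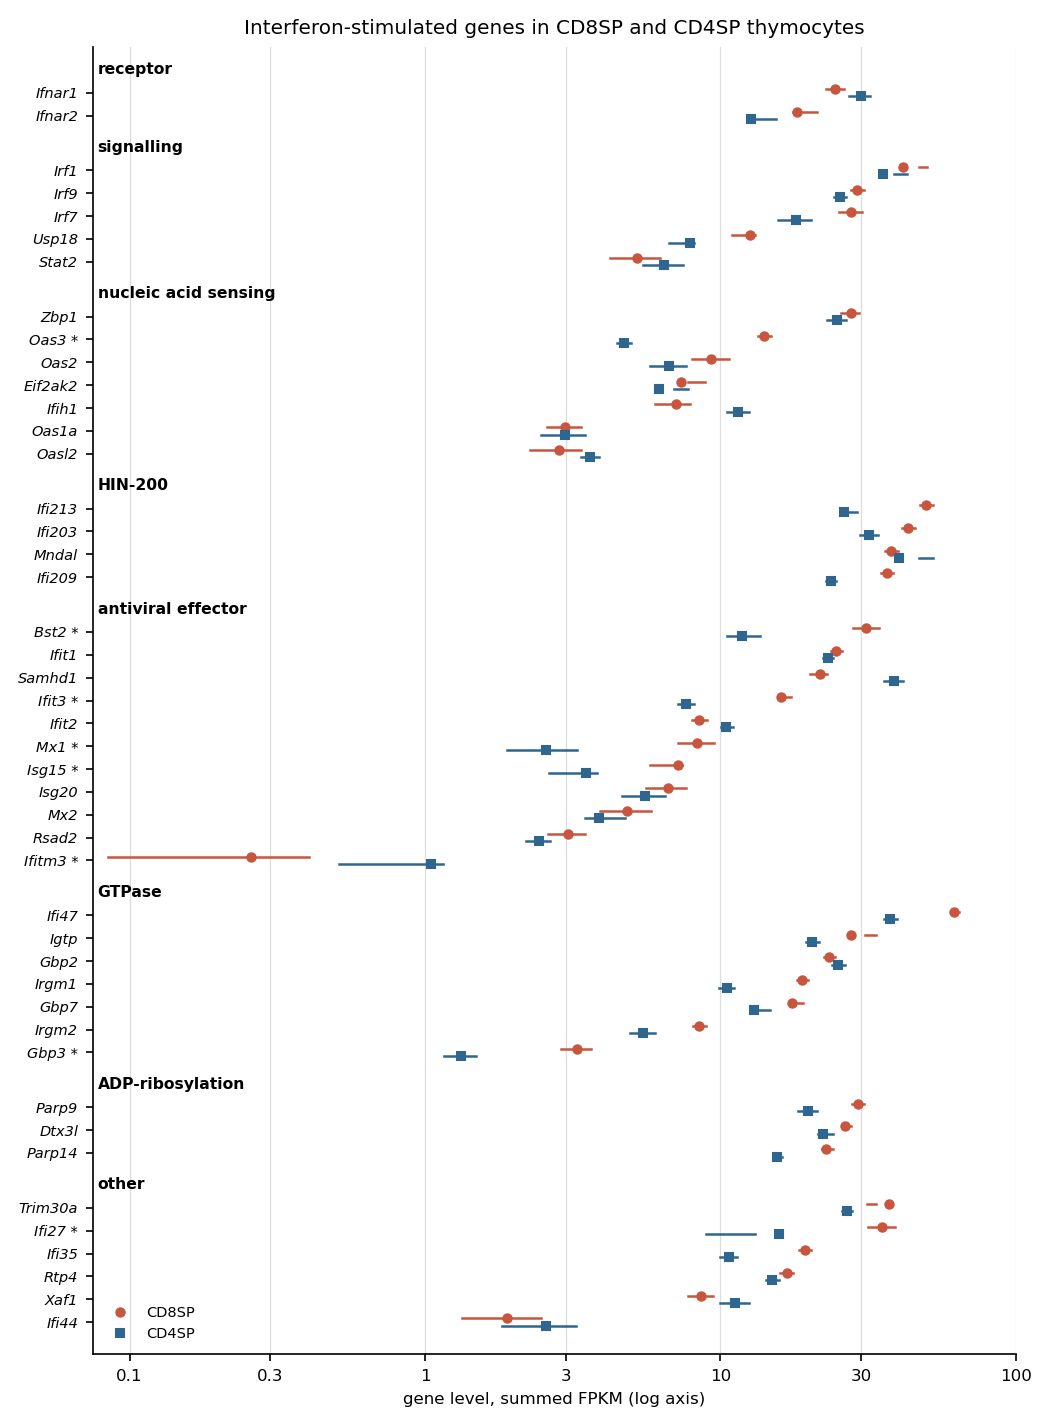
Level of each of the 45 genes at 1 FPKM or more in either lineage, as summed FPKM on a log axis, in CD8SP (red circles) and CD4SP (blue squares), grouped by role; lines span the summed deposited limits and asterisks mark the 8 called genes. Some sums lie outside their own limits, such as Irf1 at 41.5 FPKM in CD8SP and Ifi27 at 15.7 FPKM in CD4SP.

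The receptor subunits were both present and differed in opposite directions without a call. Ifnar1 stood at 24.4 FPKM (limits 22.7 to 26.3) in CD8SP cells and 29.8 FPKM (27.1 to 32.1) in CD4SP cells. Ifnar2, which recruits Stat2 and Usp18, stood at 18.1 FPKM (17.6 to 21.2) in CD8SP cells and 12.7 FPKM (12.3 to 15.5) in CD4SP cells. The limits of each subunit lay apart, with CD4SP above for Ifnar1 and CD8SP above for Ifnar2. Ifnar2 has a 9-exon RefSeq transcript of 3045 bases and a 7-exon one of 1169 bases that ends earlier. The long one stood at 5.84 FPKM in CD8SP cells and 4.09 FPKM in CD4SP cells, and the short one at 8.30 FPKM and 5.73 FPKM. The short form made up 58.7% of the RefSeq sum in CD8SP cells and 58.4% in CD4SP cells, nearly the same share although the sum differed.

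Of the signalling genes none was called, and Irf7 and Usp18 were the furthest apart. Irf7, the factor that amplifies interferon production, stood at 27.6 FPKM (25.2 to 30.1) in CD8SP cells and 18.0 FPKM (15.7 to 20.3) in CD4SP cells, a log2 ratio of 0.62. Usp18, a protease that removes Isg15 from proteins and restrains signalling at Ifnar2, stood at 12.5 FPKM (10.9 to 13.1) in CD8SP cells and 7.87 FPKM (6.69 to 8.16) in CD4SP cells, a log2 ratio of 0.67. The limits of both genes lay apart with CD8SP above, beside 39.1% of all genes. The RefSeq transcript of Usp18 alone had overlapping limits. It stood at 6.64 FPKM (6.07 to 7.22) in CD8SP cells and 6.26 FPKM (5.78 to 6.74) in CD4SP cells. Irf9, the DNA-binding partner of Stat2, stood at 29.0 FPKM (27.6 to 30.6) in CD8SP cells and 25.3 FPKM (24.2 to 26.6) in CD4SP cells. Stat2 was the lowest of the group, at 5.201 FPKM (4.22 to 6.24) in CD8SP cells and 6.45 FPKM (5.46 to 7.44) in CD4SP cells, with overlapping limits. Irf1, a factor induced by interferon gamma, stood at 41.5 FPKM in CD8SP cells and 35.4 FPKM in CD4SP cells. Both Irf1 values lay below their own limits (47.0 to 49.9 in CD8SP and 38.6 to 42.7 in CD4SP). Of the 45 sums, 4 in CD8SP cells and 5 in CD4SP cells lay outside their own limits, above or below. Among all RefSeq transcripts this held for 5.19% in CD8SP cells and 4.89% in CD4SP cells.

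Among the sensors of nucleic acid, Oas3 was called and the others lay within 2-fold. Oas3 is one of the enzymes that answer double-stranded RNA by making short oligoadenylates that activate RNase L. It stood at 14.05 FPKM (13.4 to 14.9) in CD8SP cells and 4.72 FPKM (4.46 to 4.99) in CD4SP cells, 2.98-fold higher in CD8SP. Its neighbours on chromosome 5 differed less. Oas2 stood at 9.29 FPKM (8.02 to 10.7) in CD8SP cells and 6.68 FPKM (5.78 to 7.67) in CD4SP cells, with limits apart. Its RefSeq transcript alone went the other way, at 1.03 FPKM in CD8SP cells and 2.36 FPKM in CD4SP cells. By RefSeq transcripts only, Oas2 was called higher in CD4SP cells. Oas1a stood at 2.97 FPKM (2.59 to 3.36) in CD8SP cells and 2.98 FPKM (2.48 to 3.48) in CD4SP cells. The Oas1a result also depended on how transcripts were summed, since RefSeq transcripts alone gave 1.52 FPKM in CD8SP cells and 0.271 FPKM in CD4SP cells. Oasl2, a relative of these genes, stood at 2.83 FPKM (2.27 to 3.36) in CD8SP cells and 3.63 FPKM (3.37 to 3.89) in CD4SP cells. Ifih1, which encodes the double-stranded RNA sensor MDA5, stood at 7.05 FPKM (6.00 to 7.86) in CD8SP cells and 11.5 FPKM (10.5 to 12.5) in CD4SP cells. Oasl2 and Ifih1 were lower in CD8SP cells with limits apart and without a call. Eif2ak2, the kinase PKR that halts translation, stood at 7.33 FPKM (7.74 to 8.89) in CD8SP cells and 6.22 FPKM (6.96 to 7.74) in CD4SP cells, each below its own limits.

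Zbp1, a sensor of left-handed nucleic acid that can start necroptosis, differed little as a gene, at 27.6 FPKM (25.6 to 29.5) in CD8SP cells and 24.7 FPKM (23.0 to 26.5) in CD4SP cells. Its RefSeq transcripts moved apart. The 8-exon transcript of 1988 bases stood at 6.42 FPKM (6.00 to 6.84) in CD8SP cells and 10.03 FPKM (9.51 to 10.6) in CD4SP cells. The 4-exon transcript of 781 bases, which ends within the gene, stood at 17.9 FPKM (16.6 to 19.2) in CD8SP cells and 10.5 FPKM (9.54 to 11.5) in CD4SP cells. The short transcript was thus 73.6% of the RefSeq sum in CD8SP cells and 51.3% in CD4SP cells. This choice was not among the splicing events scored further on.

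The HIN-200 genes, a cluster on chromosome 1 whose proteins bind DNA through HIN domains, were among the most abundant genes of the list, and none was called. Ifi213 stood at 49.7 FPKM (47.5 to 52.4) in CD8SP cells and 26.2 FPKM (25.9 to 28.9) in CD4SP cells, a log2 ratio of 0.92 that just missed the size required. All of it came from assembled transcripts, 9 in CD8SP cells and 3 in CD4SP cells, since both RefSeq transcripts of the gene were listed at 0. The exon-based value, which weights every transcript by the share of the gene's exon bases it covers, was 22.5 FPKM in CD8SP cells and 7.93 FPKM in CD4SP cells, past the required size. Ifi203 stood at 43.1 FPKM (41.0 to 45.6) in CD8SP cells and 31.8 FPKM (29.8 to 34.0) in CD4SP cells. By RefSeq transcripts only it stood at 19.4 FPKM in CD8SP cells and 8.75 FPKM in CD4SP cells and was called. Ifi209 stood at 36.5 FPKM (35.0 to 38.5) in CD8SP cells and 23.6 FPKM (22.8 to 24.6) in CD4SP cells. For these 3 genes the limits lay apart with CD8SP above, beside 39.1% of all genes. Mndal stood at 37.9 FPKM (35.9 to 40.0) in CD8SP cells and 40.1 FPKM in CD4SP cells, where its limits (46.9 to 52.3) did not hold the sum. Its exon-based log2 ratio was 0.36, opposite in sign to the -0.08 of the transcript sums. In CD4SP cells, assembled transcripts of 7.89 and 4.97 FPKM counted with Mndal reached into the span of Ifi203. Others of 5.08 and 9.02 FPKM counted with Ifi203 reached across Mndal, so the sums of these genes can mix there.

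The remaining genes of the cluster were low or could not be given a comparable value. Ifi204 was listed at 0 in CD8SP cells and stood at 0.130 FPKM (0.0672 to 0.196) in CD4SP cells, and Ifi205 was listed at 0 in both. Ifi206 had no RefSeq transcript in the files. Assembled transcripts that shared a GENCODE intron with Ifi206 alone summed to 37.1 FPKM in CD8SP cells, from 2 transcripts of 3384 and 2527 bases, and to 9.91 FPKM in CD4SP cells, from 4 transcripts of 16911 to 21215 bases. Because the assembled structures differ so much in length, this pair was left out of the calls. In CD8SP cells 2 further assembled transcripts, at 2.33 and 0.877 FPKM, joined introns of Ifi206 and Ifi213 and were counted with Ifi213. Genes of this cluster, like those of the Oas, Gbp, Ifit and Ifitm families, are close copies, and the authors' estimates could split reads between them.

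The proteins that block viral steps, 11 genes tested, held 4 of the 7 genes called higher in CD8SP cells and the one called higher in CD4SP cells. These calls are 36.4% and 9.09% of the 11, against 9.98% and 4.76% of all genes. Limits lay apart with CD8SP higher in 36.4% of the 11, against 39.1% of all genes. They lay apart with CD4SP higher in 27.3%, against 15.4%. Bst2, the tetherin that holds budding virus at the cell surface, stood at 31.2 FPKM (28.1 to 34.4) in CD8SP cells and 11.8 FPKM (10.5 to 13.6) in CD4SP cells, 2.64-fold higher in CD8SP. Mx1, on chr16:97447035-97462906, encodes a dynamin-like GTPase that is defective in C57BL/6 and most other laboratory strains. It stood at 8.35 FPKM (7.20 to 9.51) in CD8SP cells and 2.57 FPKM (1.89 to 3.26) in CD4SP cells, 3.25-fold higher in CD8SP. RefSeq transcripts alone, at 1.40 FPKM in CD8SP cells and 1.04 FPKM in CD4SP cells, did not pass. With gene symbols from the RefSeq gene table alone the log2 ratio of Mx1 was 1.05, against 1.66. Ifit3, which with its relatives binds foreign RNA ends, stood at 16.03 FPKM (15.6 to 17.3) in CD8SP cells and 7.65 FPKM (7.18 to 8.13) in CD4SP cells. Isg15, the ubiquitin-like protein attached to others in the response, stood at 7.21 FPKM (5.79 to 7.38) in CD8SP cells and 3.50 FPKM (2.64 to 3.83) in CD4SP cells. Ifit3 and Isg15 passed narrowly, 2.09-fold and 2.06-fold higher in CD8SP, and neither passed once CD8SP was scaled by the all-gene median. Ifit3 was also under the size in the exon-based value, with a log2 ratio of 0.80.

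The other Ifit genes lie beside Ifit3 on chromosome 19 and were not called. Ifit1 stood at 24.5 FPKM (23.6 to 25.7) in CD8SP cells and 23.1 FPKM (22.2 to 24.1) in CD4SP cells, and Ifit2 at 8.45 FPKM (8.01 to 8.98) and 10.4 FPKM (10.02 to 11.01). The Ifit genes of one cluster therefore lay on both sides of equality. Ifitm3, on chr7:141009590-141010744, encodes a membrane protein that stops viral fusion. It stood at 0.258 FPKM (0.0844 to 0.405) in CD8SP cells and 1.051 FPKM (0.513 to 1.15) in CD4SP cells, 4.07-fold lower in CD8SP, and only just reached the minimum level. Its neighbour Ifitm2 stood at 0.0492 FPKM (0 to 0.0873) in CD8SP cells and 0.926 FPKM (0.624 to 1.25) in CD4SP cells, under the minimum in both.

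Samhd1, which breaks down nucleotides needed by retroviruses, was the most unequal gene in the other direction among those above 5 FPKM, at 21.6 FPKM (20.1 to 22.9) in CD8SP cells and 38.7 FPKM (35.6 to 41.3) in CD4SP cells. Its log2 ratio of -0.84 missed the size, and passed it once CD8SP was scaled by the all-gene median. An assembled 16-exon transcript of 2542 bases held 18.5 FPKM of the CD4SP sum. The RefSeq transcripts leaned the other way, at 17.8 FPKM in CD8SP cells and 14.5 FPKM in CD4SP cells. The last genes of the group had overlapping limits. Isg20, an RNA exonuclease, stood at 6.62 FPKM (5.61 to 7.64) in CD8SP cells and 5.56 FPKM (4.64 to 6.48) in CD4SP cells. Mx2 stood at 4.84 FPKM (3.92 to 5.81) in CD8SP cells and 3.88 FPKM (3.48 to 4.75) in CD4SP cells. Rsad2, the enzyme viperin that makes a chain-terminating nucleotide, stood at 3.04 FPKM (2.61 to 3.49) in CD8SP cells and 2.42 FPKM (2.19 to 2.65) in CD4SP cells. Isg20 has RefSeq transcripts with different starts: the 4-exon one stood at 2.83 FPKM (2.44 to 3.23) in CD8SP cells and 3.16 FPKM (2.76 to 3.57) in CD4SP cells, and the 3-exon one at 3.40 FPKM (2.86 to 3.94) and 2.02 FPKM (1.57 to 2.47).

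Of the 7 GTPases of the immunity-related and guanylate-binding families, 6 were above in CD8SP cells with limits apart, beside 39.1% of all genes. The median log2 ratio of the 7 was 0.63, beside the all-gene median of 0.22. Mx1 and Mx2 are not among the 7, since they were grouped with the proteins that block viral steps. Ifi47, an immunity-related GTPase, had the highest level of the whole list in CD8SP cells, at 61.7 FPKM (60.5 to 64.2) in CD8SP cells and 37.6 FPKM (35.7 to 39.6) in CD4SP cells. Its relative Irgm1, which regulates other GTPases of this family, stood at 18.8 FPKM (18.1 to 19.7) in CD8SP cells and 10.5 FPKM (9.90 to 11.1) in CD4SP cells. Igtp stood at 27.6 FPKM in CD8SP cells, below its limits (30.7 to 33.6), and at 20.4 FPKM (19.4 to 21.5) in CD4SP cells. All 3 belong to a family encoded on chromosome 11, as does Irgm2, which stood at 8.48 FPKM (8.07 to 8.97) in CD8SP cells and 5.46 FPKM (4.93 to 6.00) in CD4SP cells. The guanylate-binding proteins, from a cluster on chromosome 3, varied more. Gbp3 stood at 3.26 FPKM (2.88 to 3.65) in CD8SP cells and 1.33 FPKM (1.16 to 1.49) in CD4SP cells and was called higher in CD8SP. That call rested on 1 assembled transcript of 2.44 FPKM in CD8SP cells, since the RefSeq transcript alone leaned to CD4SP cells, at 0.821 FPKM in CD8SP cells and 1.33 FPKM in CD4SP cells. Gbp7 stood at 17.4 FPKM (17.1 to 18.98) in CD8SP cells and 12.9 FPKM (13.2 to 14.7) in CD4SP cells. Its RefSeq transcripts alone leaned to CD4SP cells, at 9.54 FPKM in CD8SP cells and 11.05 FPKM in CD4SP cells. Gbp2 stood at 23.3 FPKM (22.4 to 24.5) in CD8SP cells and 25.0 FPKM (23.9 to 26.3) in CD4SP cells, with overlapping limits.

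Parp9 and its partner Dtx3l, a ubiquitin ligase encoded beside it on chromosome 16, and the ADP-ribosyltransferase Parp14 were all above in CD8SP cells without a call. Parp9 stood at 29.1 FPKM (27.8 to 30.7) in CD8SP cells and 19.7 FPKM (18.3 to 21.2) in CD4SP cells. Dtx3l stood at 26.3 FPKM (26.3 to 27.6) in CD8SP cells and 22.2 FPKM (21.3 to 23.9) in CD4SP cells. Parp14 stood at 22.8 FPKM (22.0 to 23.9) in CD8SP cells and 15.6 FPKM (15.4 to 16.2) in CD4SP cells. The 3 pairs of limits lay apart, beside 39.1% of all genes apart with CD8SP higher. The log2 ratio of Dtx3l, 0.25, was near the all-gene median of 0.22. Parp9 and Dtx3l overlap on chromosome 16, between 35938470 and 35939027, so reads there could have been assigned to either.

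Of the remaining genes, Ifi27 was called. Ifi27, on chr12:103434189-103440245, encodes a small membrane protein, and stood at 35.3 FPKM (31.6 to 39.0) in CD8SP cells and 15.7 FPKM in CD4SP cells, above its own limits there (8.93 to 13.1). It was 2.24-fold higher in CD8SP and fell under the size once CD8SP was scaled by the all-gene median. Ifi35, a partner of Nmi, stood at 19.4 FPKM (18.5 to 20.2) in CD8SP cells and 10.6 FPKM (9.93 to 11.4) in CD4SP cells, a log2 ratio of 0.86. Trim30a, of the tripartite motif family, stood at 37.3 FPKM in CD8SP cells, above its limits (31.3 to 33.6), and at 26.7 FPKM (25.8 to 27.8) in CD4SP cells. Rtp4, a receptor-transporting protein, stood at 16.7 FPKM (15.9 to 17.6) in CD8SP cells and 14.97 FPKM (14.3 to 15.8) in CD4SP cells. These 3 had limits apart with CD8SP above, beside 39.1% of all genes. Xaf1, which binds the apoptosis inhibitor XIAP, stood at 8.60 FPKM (7.76 to 9.45) in CD8SP cells and 11.2 FPKM (9.95 to 12.5) in CD4SP cells. Its exon-based value had the opposite sign, at 8.44 FPKM in CD8SP cells and 5.17 FPKM in CD4SP cells. Ifi44 stood at 1.90 FPKM (1.33 to 2.46) in CD8SP cells and 2.58 FPKM (1.83 to 3.24) in CD4SP cells, with overlapping limits.

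**Figure D3:**
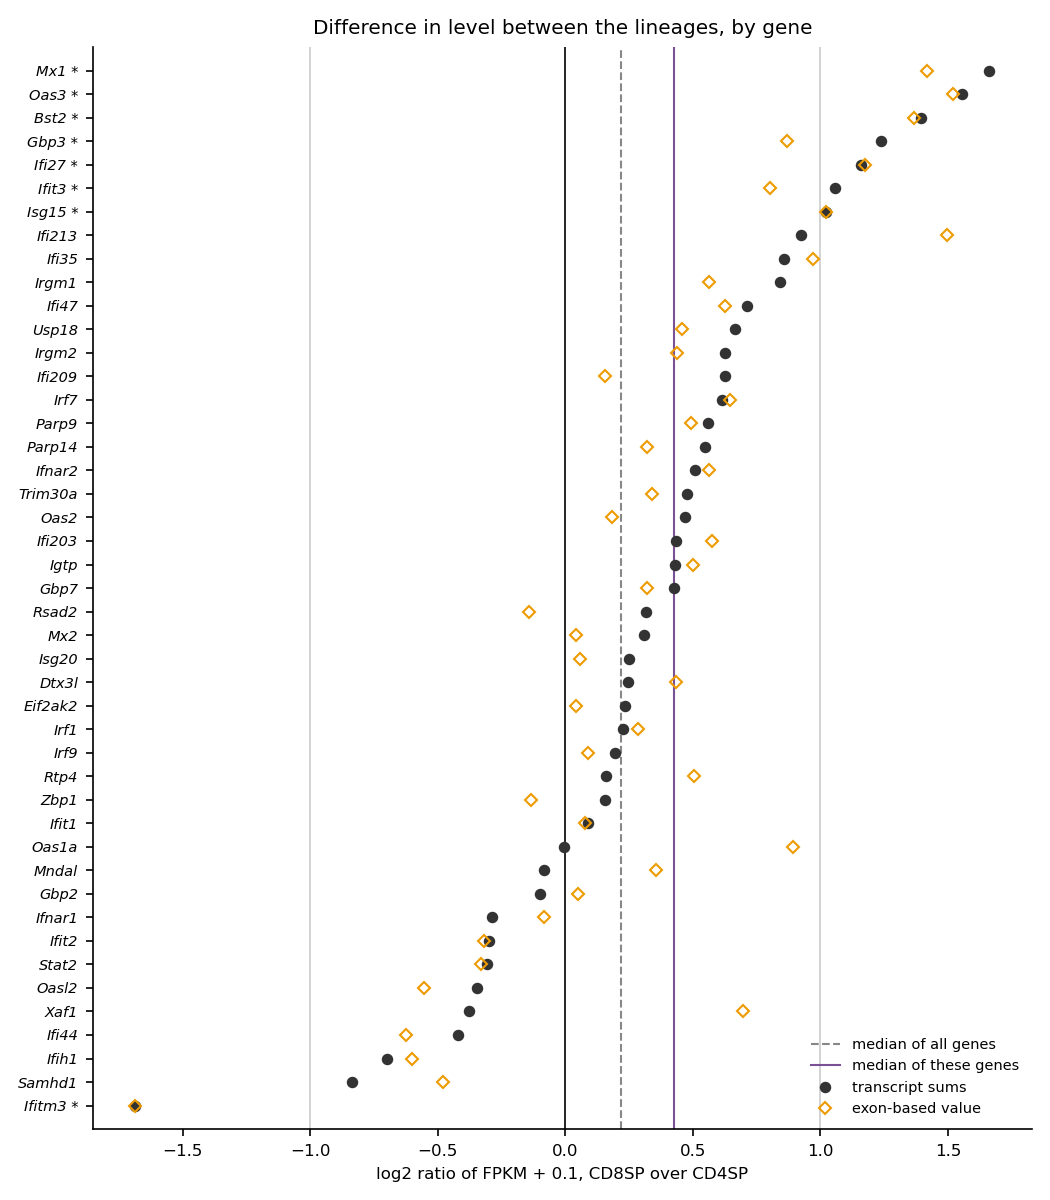
Log2 ratio of FPKM + 0.1, CD8SP over CD4SP, for the 45 genes, from transcript sums (black) and from the exon-based value (open orange); the dashed line is the median of all genes (0.22), the purple line the median of these genes (0.43), grey lines the required size, and asterisks the calls. Mx1, Oas3 and Bst2 lie furthest to the right by both measures except for Ifi213, whose exon-based ratio is 1.49.

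The genes of the pathway outside the list were examined on lists of ligands, receptors and kinases, transcription factors, inhibitors, sensors and other inducible genes. Of 158 such genes with transcripts, 121 reached 1 FPKM, of which 14 (11.6%) were called higher in CD8SP cells and 6 (4.96%) higher in CD4SP cells. These shares lay near the 9.98% and 4.76% of all genes. Of 10 interferon genes, 8 were listed at 0 in both lineages and none reached 1 FPKM. Ifng, the gene of interferon gamma, was the highest of them, at 0.274 FPKM in CD8SP cells and 0.974 FPKM in CD4SP cells. Jak1 stood at 70.4 FPKM in CD8SP cells and 62.7 FPKM in CD4SP cells, and Tyk2 at 8.40 FPKM and 5.09 FPKM. Ifngr1 stood at 31.6 FPKM in CD8SP cells and 23.8 FPKM in CD4SP cells, and Ifngr2 at 15.2 FPKM and 22.0 FPKM. None of these 4 was called. The receptor and kinase list held 1 call in 6 genes tested, the transcription factor list 1 in 9, the inhibitor list 1 in 6 and the sensor list 2 in 12. Over all genes the shares called were 9.98% higher in CD8SP cells and 4.76% higher in CD4SP cells.

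The 8 called genes outside the list with the largest ratios pointed in both directions. Ms4a4c, a membrane protein of the Ms4a family, stood at 7.90 FPKM in CD8SP cells and was listed at 0 in CD4SP cells. Aim2, a sensor of cytosolic DNA that forms inflammasomes, stood at 4.77 FPKM in CD8SP cells and was listed at 0 in CD4SP cells, where the exon-based value was 1.53 FPKM. For Ms4a4c the exon-based value in CD4SP cells was 0.699 FPKM. Plac8 stood at 25.6 FPKM in CD8SP cells and 0.757 FPKM in CD4SP cells, and Cgas, the enzyme that senses cytosolic DNA, at 2.77 FPKM and 0.609 FPKM. Higher in CD4SP cells were Ly6c1 (0.171 FPKM in CD8SP and 4.23 FPKM in CD4SP), Ly6a (2.93 and 12.03 FPKM), Casp1 (0.199 and 1.07 FPKM) and Irf4 (3.10 and 11.8 FPKM). Ly6a and Ly6c1 encode surface proteins of the Ly6 family, Casp1 the inflammasome protease, and Irf4 a factor induced by antigen receptor signals.

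Markers of the sort and of other cells were as follows. Cd8a stood at 240.8 FPKM in CD8SP cells and 10.9 FPKM in CD4SP cells, and Cd4 at 1.69 FPKM and 107.1 FPKM, in the directions of the labels. Other cell types can carry interferon-stimulated genes. The 10 myeloid and dendritic markers summed to 1.57 FPKM in CD8SP cells and 2.50 FPKM in CD4SP cells as transcripts. Cd68 was listed at 0 in both, but its exon-based values were 4.59 FPKM in CD8SP cells and 1.89 FPKM in CD4SP cells. Fcer1g and Tyrobp were listed at 0 in CD8SP cells. Their exon-based values were 1.199 and 0.876 FPKM in CD8SP cells, and 0.697 and 0.264 FPKM in CD4SP cells. These genes thus leaned to CD8SP cells by the exon-based value, against the direction of the sum. Lyz2, Itgam, Adgre1 and Cd209a leaned to CD4SP cells by both values, and Csf1r, Itgax and Xcr1 to CD8SP cells. Xcr1 marks cross-presenting dendritic cells and was the one gene of that list at 1 FPKM as transcripts. It was called higher in CD8SP cells, at 1.04 FPKM in CD8SP cells and 0.134 FPKM in CD4SP cells. The 6 B cell markers summed to 5.52 FPKM in CD8SP cells, nearly all of it Cd79b at 5.49 FPKM, and to 0.714 FPKM in CD4SP cells, with Pax5 and Cd79a listed at 0 in both. The exon-based value of Cd79a was 0.248 FPKM in CD8SP cells and 7.05 FPKM in CD4SP cells. The 5 plasmacytoid dendritic cell markers summed to 77.4 FPKM in CD8SP cells and 51.9 FPKM in CD4SP cells, most of it Ccr9, which thymocytes also express, at 74.6 and 47.4 FPKM. Tcf4 of the same list was called higher in CD4SP cells, at 1.40 FPKM in CD8SP cells and 3.47 FPKM in CD4SP cells. Siglech, which defines those cells, stood at 0.0882 FPKM in CD8SP cells and 0.0572 FPKM in CD4SP cells. The 4 innate-like markers summed to 0.560 FPKM in CD8SP cells and 4.86 FPKM in CD4SP cells, and the 2 regulatory T cell markers to 0.684 and 5.40 FPKM. Of markers of late maturation and egress, 6 of 7 had limits apart with CD8SP higher, with H2-Q7 called, and all 3 of the immature thymocyte markers tested had limits apart with CD4SP higher, such as Rag1 at 4.12 FPKM in CD8SP cells and 12.5 FPKM in CD4SP cells. Over all genes 39.1% had limits apart with CD8SP higher and 15.4% with CD4SP higher. The part of these differences in the levels of the interferon-stimulated genes was not tested.

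Splicing was measured as percent spliced in, the share of the summed FPKM of both forms held by the form that includes the exon, uses the longer exon or comes first. Events with both forms in RefSeq and a summed level of at least 1 FPKM in each lineage numbered 18 in 11 of the genes. The sum of a form also included the assembled transcripts that have it. For Samhd1 in CD4SP cells the event sum was 34.2 FPKM and the RefSeq sum 14.5 FPKM. A difference of 20 percentage points was found in 3 of the 18 (16.7%), in Ifi213, Irf9 and Mx1, against 17.0% of 2734 events over all genes. The median size of the difference was 4.38 points in the 18 events and 6.51 points over all genes.

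The Ifi213 event was a 52-base exon at chr1:173596956-173597007 on the minus strand, exon 2 of the gene in GENCODE and annotated there as untranslated. It was included at 53.4% in CD8SP cells and 7.24% in CD4SP cells, behind summed levels of 49.7 FPKM and 26.2 FPKM. Both forms are annotated in RefSeq, but both RefSeq transcripts were listed at 0, so these shares rest wholly on 9 assembled transcripts in CD8SP cells and 3 in CD4SP cells, whose structures differ. In Mx1 the choice was between 2 ends of the untranslated first exon. The longer form adds 182 bases at chr16:97462699-97462880 on the minus strand and made up 16.02% in CD8SP cells and 45.3% in CD4SP cells, behind 5.54 FPKM and 1.49 FPKM. Among RefSeq transcripts alone that form held 8.70% in CD8SP cells and 58.6% in CD4SP cells. The Irf9 event was an 86-base exon at chr14:55604468-55604553 on the plus strand, annotated as coding in 1 GENCODE transcript. It was included at 21.5% in CD8SP cells and 0% in CD4SP cells, but behind only 3.62 FPKM and 2.11 FPKM, since most Irf9 RNA starts downstream of it. That downstream start held 23.2 FPKM in CD8SP cells and 23.2 FPKM in CD4SP cells.

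The other annotated events differed by less than 12 points. In Irf7 the longer form at an acceptor choice of 96 bases made up 57.6% in CD8SP cells and 62.9% in CD4SP cells. Among RefSeq transcripts alone that form held 63.1% in CD8SP cells and 60.5% in CD4SP cells. In Samhd1 a 123-base exon was included at 19.2% in CD8SP cells and 11.1% in CD4SP cells. Among RefSeq transcripts alone the form with this exon held 17.9% in CD8SP cells and 17.6% in CD4SP cells. A 147-base exon of Ifih1 was included at 100% in CD8SP cells and 88.5% in CD4SP cells. The form without it in CD4SP cells was an assembled transcript of 0.833 FPKM, since the RefSeq one was listed at 0. The 135-base exon of Ifi27 was included at 32.4% in CD8SP cells and 32.7% in CD4SP cells, while the level of the gene differed 2.24-fold. The remaining events, in Ifi203, Ifi27, Ifi47, Gbp7, Irf1, Irf7 and Irf9, differed by less than 10 points.

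With forms found only in assembled transcripts admitted as well, 334 events could be measured. Of these, 110 passed 20 points (32.9%), against 19.1% of 75689 events over all genes. Assembled transcripts differ between the tables, so many such forms are listed in one lineage alone. Of 65 events with an assembled form and with both forms above 0 in both lineages, 6 passed (9.23%), in Ifi213, Mx1 and Usp18. The share over all genes was not computed for such events, so this count has no background. The 6 are not independent, since both Usp18 introns had the same CD8SP share behind the same summed level. In Usp18 transcripts that kept the 420-base intron at chr6:121268678-121269097 made up 27.8% in CD8SP cells and 2.13% in CD4SP cells, behind 9.20 FPKM and 6.66 FPKM.

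**Figure D4:**
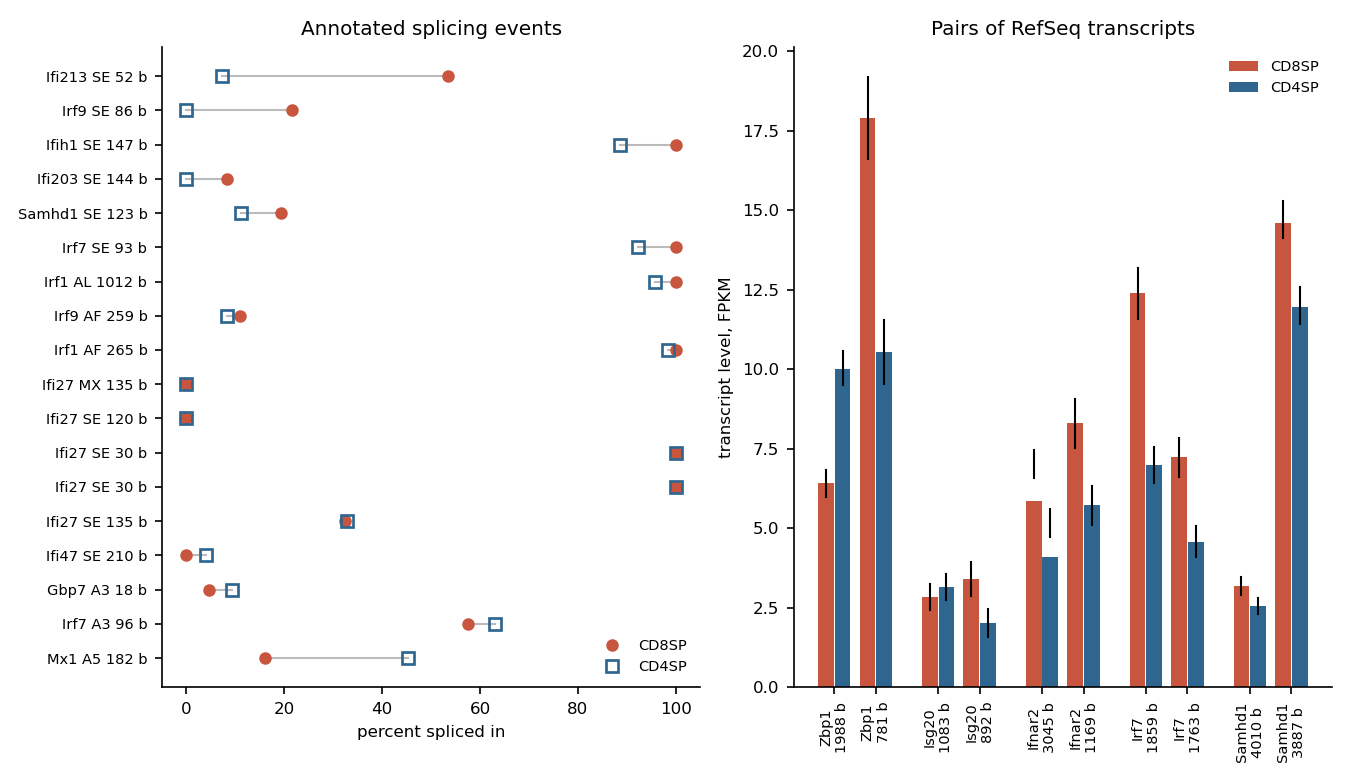
Left, percent spliced in of the 18 annotated events in CD8SP (red circles) and CD4SP (open blue squares), named by gene, event type (SE skipped exon, MX exclusive exons, A5 and A3 alternative donor and acceptor, AF and AL alternative first and last exon) and size in bases. Right, FPKM of pairs of RefSeq transcripts named by length, CD8SP left of CD4SP, with deposited limits as lines; the 781-base Zbp1 transcript is higher in CD8SP (17.9 FPKM) than in CD4SP (10.5 FPKM), and the 1988-base one lower (6.42 and 10.03 FPKM).

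The long-read tables list isoforms without usable read counts, so each isoform counts once and the numbers are not levels. The CD8SP table held 28 isoforms of 17 of the 49 genes, 0.295% of its 9476 isoforms, and that of CD4SP cells held 17 isoforms of 12 genes, 0.205% of its 8289. Both tables held isoforms of 9 genes, namely Dtx3l, Ifi206, Ifi209, Irf1, Mndal, Oas2, Parp9, Rtp4 and Stat2. Bst2, Gbp2, Ifnar1, Igtp, Irf9, Samhd1, Trim30a and Usp18 were listed in the CD8SP table alone, Ifi27, Ifi35 and Parp14 in the CD4SP table alone, and 29 genes in neither. A gene listed in one table is not shown to be absent from the other cells, since depth was not given. Isoforms antisense to these genes, 4 in the CD8SP table and 1 in the CD4SP table, were not counted.

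Few of the isoforms were whole. Full splice matches to a reference transcript numbered 4 in CD8SP cells, of Bst2 (5 exons, 636 bases), Gbp2 (11 exons, 2506 bases), Oas2 (3 exons, 2744 bases) and Rtp4 (2 exons, 979 bases). In CD4SP cells there were 2, of Oas2 (2719 bases) and Rtp4 (978 bases). They are 4 of 28 and 2 of 17 isoforms. Over all isoforms full matches were rarer, at 798 of 9476 in CD8SP cells and 652 of 8289 in CD4SP cells. Fragments that match the 5′ part of a transcript numbered 12 in CD8SP cells and 7 in CD4SP cells. Over all isoforms such fragments made up smaller shares, 1103 of 9476 in CD8SP cells and 733 of 8289 in CD4SP cells. The compared sets differ in make-up. Isoforms with several exons were 21 of the 28 in CD8SP cells and 11 of the 17 in CD4SP cells. Over all isoforms they were 3348 of 9476 and 2756 of 8289. Full matches and 5′ fragments were not compared at equal exon number. Stat2 had the most isoforms, 6 in CD8SP cells and 4 in CD4SP cells, of which 4 and 3 were 2-exon 5′ fragments. Several structures recurred in both lineages with the same number of exons and nearly the same length. Their ends were not compared. Mndal had an 8-exon fragment of 1816 bases in CD8SP cells and 1822 bases in CD4SP cells. Parp9 had a 5-exon fragment of 2444 and 2443 bases, and a 4-exon form with a retained intron of 4217 bases in both. Dtx3l had a single-exon isoform of 2370 and 2372 bases.

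The isoforms of the other genes differed between the tables. Irf1 had 5′ fragments of 5 and 7 exons in CD8SP cells and a single-exon isoform in CD4SP cells. Ifi206 had a 4-exon fragment of 1791 bases in CD8SP cells and a single-exon isoform of 3430 bases in CD4SP cells, and Ifi209 a single-exon isoform in CD8SP cells and a 4-exon fragment in CD4SP cells. Trim30a had a 7-exon isoform of 3737 bases, with known splice sites in a new combination, in CD8SP cells, and Irf9 a 6-exon fragment of 1784 bases. Samhd1 had a 2-exon isoform of 3256 bases with a retained intron in CD8SP cells. The isoforms of Ifi27, Ifi35 and Parp14 in CD4SP cells and of Ifnar1, Igtp and Usp18 in CD8SP cells had a single exon. A genome sequence after the end with 60% A or more is a sign of priming within a transcript. It was found in 7 of the 28 isoforms of CD8SP cells and 5 of the 17 of CD4SP cells. The remaining 21 and 12 held less. Over all isoforms, 3783 of 9476 in CD8SP cells and 2980 of 8289 in CD4SP cells held less. Such A-rich ends were thus less frequent among these genes than over all isoforms, which more often have a single exon. The shares were not compared at equal exon number.

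**Figure D5:**
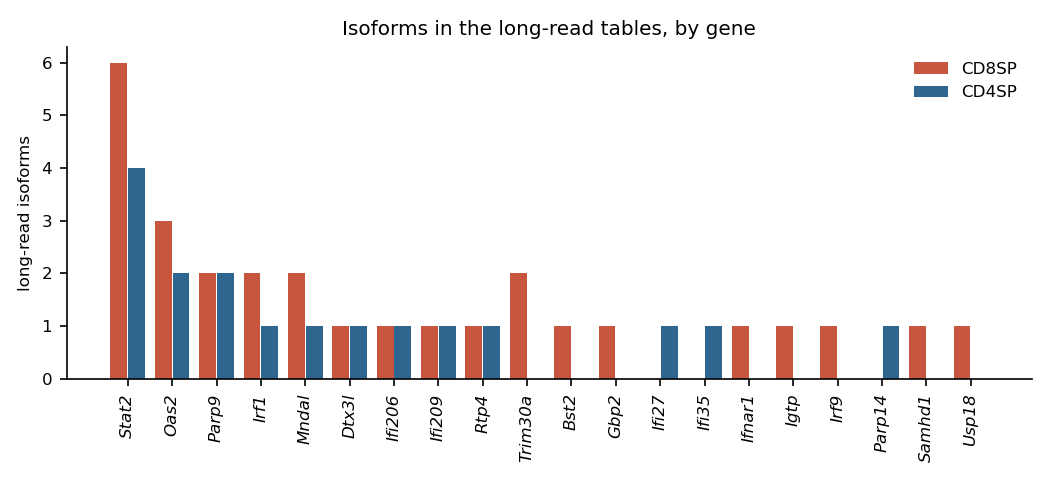
Number of long-read isoforms of the 20 interferon-stimulated genes found in either table, CD8SP (red) left of CD4SP (blue), with each isoform counted once. Stat2 has the most, 6 in CD8SP and 4 in CD4SP, and 9 genes have isoforms in both.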

How the data were processed

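RNA of sorted mature CD8SP and CD4SP thymocytes was sequenced as rRNA-depleted short reads and PacBio long reads, per the labels' protocols. The submitters' processing notes name build GRCm38 and, without an order, Cufflinks 2.1.1, TopHat2 2.0.14, GSNAP 2016-11-07, RSEM 1.3.1, Trimmomatic and FastQC. The deposited short-read tables give FPKM and its lower and upper limits per transcript, RefSeq and assembled, in 1 table per lineage, per the file headers. The deposited long-read tables give the percent of A after each isoform's end, per the file headers.

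With Python 3.11.15, numpy 2.4.6 and pandas 2.3.3, gene FPKM was the sum over RefSeq transcripts and assembled multi-exon transcripts that share an intron with that gene only. Of 30589 RefSeq transcripts 30497 received a symbol, 310 of them through GENCODE M21 introns. Ratios used FPKM + 0.1 and a minimum of 1 FPKM. Splicing events of 7 types used summed FPKM. Deposited lanes and libraries have no replicates, so no test was run. The deposited transcript TPM values could not be tied to genes and were not used. Scripts were tested on simulated data. The members and lists were chosen with earlier results of these data known. All 49 genes are accounted for; genes outside them were named by the size of the ratio, at most 8, beside Jak1, Tyk2, Ifngr1 and Ifngr2. A further gene fixed by this rule is not reported here.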

Additional observations from a re-analysis of the deposited data

How the results depend on the processing

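Each value rests on 1 pooled table per lineage, so no alternative measures the spread between animals, and the depth is unknown. With a pseudocount of 1 FPKM, 4 genes were called higher in CD8SP cells and 0 in CD4SP cells, beside 6.49% and 2.68% of all genes. With no minimum level the call higher in CD4SP cells covered 3 of 47 genes, beside 6.45% of all genes, and the median log2 ratio was 0.32. With a minimum of 5 FPKM it covered 0 of 38, beside 2.49%. With CD8SP scaled to the all-gene median, 4 genes were called higher in CD8SP cells, 2 in CD4SP cells, beside 6.87% and 6.67% of all genes, and the median was 0.22. With RefSeq transcripts only, 8 of 43 genes were called higher in CD8SP cells and 3 in CD4SP cells, beside 15.1% and 5.44% of all genes. There the median of 0.24 lay below the all-gene median of 0.31, and the log2 ratio of Gbp3 turned to -0.63. With the exon-based value 6 of 46 genes were called higher in CD8SP cells and 2 in CD4SP cells, beside 7.54% and 3.39% of all genes. Bst2 and Oas3 were called under all 9 alternatives. Symbols taken from the RefSeq gene table alone, an alternative chosen after seeing the data, gave the same 7 and 1 calls, with the log2 ratio of Mx1 at 1.05. In CD4SP cells 11 long-read isoforms had several exons, and 11 were full or incomplete splice matches. With a summed level of 5 FPKM required, 1 annotated event was called, for which no share over all genes is given here. With forms found only in assembled transcripts admitted, 110 of 334 events were called, beside 19.1% of such events over all genes. An ISRE core followed by C lay in the window of 14 of the 39 genes (35.9%), beside 0.944% of all 27025 genes. No paired analysis was possible because each lineage has 1 merged table and the lane numbers mark no shared animals.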
